A study of Mus musculus with 6 samples.

Results

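Troponins and tropomyosins are the regulatory proteins of the thin filament of striated muscle. The family described here has 10 genes, 3 for troponin I (Tnni1, Tnni2, Tnni3), 3 for troponin T (Tnnt1, Tnnt2, Tnnt3), Tnnc1 for troponin C and 3 for tropomyosin (Tpm1, Tpm2, Tpm3). They were found by symbol among the 55487 genes of the files, and all 10 were present once. RNA came from left ventricles of 8-week-old male C57BL/6 wild-type mice and was measured by bulk sequencing in 6 libraries. The 3 ET libraries come from mice on a 5% ethanol diet for 10 days that then received a single ethanol gavage. The 3 CONT libraries come from mice on an isocaloric control diet that received maltose-dextrin by gavage. Hearts were taken 9 h after the gavage in both groups. ET is labelled as alcoholic cardiomyopathy, and the schedule is the short feeding-plus-binge model of the NIAAA. No label says that each library is a separate mouse, and the p-values therefore reflect the scatter among these 6 libraries, which may be technical.

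Tropomyosin, a coiled-coil dimer, lies along the actin filament and covers the sites where myosin binds. Troponin sits on it as a complex of an inhibitory subunit (troponin I), a tropomyosin-binding subunit (troponin T) and a calcium-binding subunit (troponin C). When calcium binds troponin C, troponin I lets go of actin, tropomyosin shifts and the muscle contracts. The adult heart uses Tnni3, Tnnt2, Tnnc1 and Tpm1. Tnni1 encodes the slow skeletal troponin I that the fetal heart also makes, Tnni2 and Tnnt3 encode fast skeletal forms, and Tnnt1 encodes the slow skeletal troponin T. Tpm2 encodes beta tropomyosin and Tpm3 the slow muscle form, and both genes also give tropomyosins of smooth muscle or of non-muscle cells.

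Library totals ran from 31553420 to 33599269 expected counts (counts per gene that the quantifier estimates) in ET and from 28838386 to 37762233 in CONT, and 15727 genes had enough of them to be tested. Of the 10 members 9 were among these, and Tnnt3 was not. Levels are given as TPM, a share of all transcripts that is scaled per transcript length, so that genes can be set side by side. Differences between groups are log2 fold changes of CPM, the counts scaled to the library total and TMM factors but not per length. ET replicate 1 and CONT replicate 3 stood apart in marker genes of other tissue. The summed TPM of 8 atrial markers was 14760, 507 and 113 in ET replicates 1 to 3, against 172, 110 and 2207 in CONT replicates 1 to 3. ET replicate 1 also had the highest summed TPM of the smooth muscle, fibroblast, mesothelial, macrophage, endothelial and skeletal muscle lists. The slow skeletal or fetal program list peaked there too, at 11837 TPM against 799 to 2305 TPM in the other libraries. It shares Nppa and Myl4 with the atrial list (8200 and 2341 TPM in ET replicate 1). Others of it, as Myh7 and Ankrd1, were not highest there. The summed TPM of 10 cardiomyocyte markers, all present, ran from 28873 to 38994 in ET and from 40706 to 42450 in CONT, without overlap. Myh6 and Myl2, a myosin heavy and a light chain, made 62.7 to 69.2% of that sum in ET and 63.0 to 67.8% in CONT, and the sum of the other 8 markers overlapped, at 8878 to 14535 TPM in ET and 13142 to 15454 TPM in CONT. In bulk RNA, fewer cells of a type and less RNA per cell cannot be told apart.

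Tnnt2, Tpm1, Tnni3 and Tnnc1 carried almost all of the family's mRNA. In the 6 libraries Tnnt2 ranked 9 to 11 by TPM among genes not encoded in the mitochondrion, Tpm1 also 9 to 11, Tnni3 10 to 13 and Tnnc1 15 to 22. The 10 members together made up 1.63, 1.897 and 1.82% of all TPM in ET replicates 1 to 3 and 2.001, 2.13 and 2.23% in CONT replicates 1 to 3. All 3 ET shares lay below the CONT shares. Summed by subunit, troponin I averaged 4189 ± 311 TPM in ET and 5552 ± 261 TPM in CONT, troponin T 5762 ± 539 TPM in ET and 5903 ± 755 TPM in CONT, and tropomyosin 5695 ± 1103 TPM in ET and 6702 ± 418 TPM in CONT (SD, n = 3 each). The promoters of these 4 genes, and that of Tpm2, whose values across libraries followed another course, are shown for reference. RefSeq gives promoter windows (GRCm38.p6) for 8 members. Each window has 300 bases, read 5′ to 3′ on the strand of the gene, of which the last 50 follow the start site. The first windows are chr7:4522479-4522778 (Tnni3, minus strand), chr14:31208062-31208361 (Tnnc1, plus), chr1:135836084-135836383 (Tnnt2, plus), chr9:67049164-67049463 (Tpm1, minus) and chr4:43523505-43523804 (Tpm2, minus). Capitals mark GATA and the M-CAT core CATTCC on either strand.
Tnni3: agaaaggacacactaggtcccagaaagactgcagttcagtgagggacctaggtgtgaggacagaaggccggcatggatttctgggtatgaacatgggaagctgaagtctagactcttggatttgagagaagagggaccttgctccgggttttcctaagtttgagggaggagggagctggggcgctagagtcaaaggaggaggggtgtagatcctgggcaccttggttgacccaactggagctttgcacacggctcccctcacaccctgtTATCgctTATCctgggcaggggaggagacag
Tnnc1: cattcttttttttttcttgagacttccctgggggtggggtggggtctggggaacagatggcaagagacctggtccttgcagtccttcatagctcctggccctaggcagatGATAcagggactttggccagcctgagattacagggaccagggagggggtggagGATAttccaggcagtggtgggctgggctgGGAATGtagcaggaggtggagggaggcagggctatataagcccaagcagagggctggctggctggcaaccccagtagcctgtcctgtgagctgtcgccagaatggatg
Tnnt2: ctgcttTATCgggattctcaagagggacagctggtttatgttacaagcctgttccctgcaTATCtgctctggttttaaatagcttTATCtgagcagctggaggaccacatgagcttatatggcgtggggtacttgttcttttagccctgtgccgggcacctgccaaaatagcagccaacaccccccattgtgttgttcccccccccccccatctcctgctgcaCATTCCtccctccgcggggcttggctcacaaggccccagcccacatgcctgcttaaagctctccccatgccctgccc
Tpm1: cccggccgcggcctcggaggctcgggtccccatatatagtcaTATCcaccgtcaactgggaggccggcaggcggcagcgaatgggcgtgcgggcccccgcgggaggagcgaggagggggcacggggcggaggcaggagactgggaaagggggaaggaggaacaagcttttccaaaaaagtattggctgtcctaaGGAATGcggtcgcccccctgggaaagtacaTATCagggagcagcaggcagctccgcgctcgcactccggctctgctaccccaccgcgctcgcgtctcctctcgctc
Tpm2: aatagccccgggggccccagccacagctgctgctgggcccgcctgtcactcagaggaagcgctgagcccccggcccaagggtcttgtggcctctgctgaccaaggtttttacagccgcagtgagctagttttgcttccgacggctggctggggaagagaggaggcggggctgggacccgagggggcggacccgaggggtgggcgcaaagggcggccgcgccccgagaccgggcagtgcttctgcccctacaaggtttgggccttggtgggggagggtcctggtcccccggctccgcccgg
GATA occurred 2 times in the window of Tnni3, 2 times in Tnnc1, 3 times in Tnnt2, 2 times in Tpm1 and 0 times in Tpm2. CATTCC occurred 1 time each in Tnnc1, Tnnt2 and Tpm1 and in neither Tnni3 nor Tpm2. Of 32851 RefSeq promoter windows of this length, 57.9% held GATA and 14.7% held CATTCC, so neither is rare. The muscle CArG box (1.63% of windows) and the MEF2 site (3.19%) had no match in these 5 windows, and neither had TATAAA (13.6%). The E-box CANNTG (72.3% of windows), not capitalised, was found in each, and in Tnnc1 it shares 1 base with a GATA. These are letter matches in a short window and say nothing of binding.

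Tnni3 mRNA, cardiac troponin I, was lower in every ET library. Its TPM was 4346, 4381 and 3829 in ET replicates 1 to 3, against 5298, 5819 and 5530 in CONT replicates 1 to 3. The groups did not overlap and the closest libraries were ET replicate 2 and CONT replicate 1. The log2 fold change was -0.60 ± 0.19 (SE), with an unadjusted p of 0.0175 and an adjusted p of 0.515 over all genes (edgeR's quasi-likelihood F-test, Benjamini-Hochberg adjusted), so it did not pass. DESeq2 on the same counts gave an adjusted p of 0.0369 for it, and the adjusted p ran from 0.0369 to 0.999 over 20 alternatives. In all of these the fold change was negative, from -0.67 to -0.41.

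Tnnc1, the calcium sensor, had the same arrangement. Its TPM was 2257, 2125 and 2211 in ET replicates 1 to 3, against 3175, 3075 and 2868 in CONT replicates 1 to 3. The groups did not overlap, and the gap between the means of 2198 ± 67.3 TPM in ET and 3040 ± 157 TPM in CONT (SD, n = 3 each) was wider than either SD. It had a log2 fold change of -0.66 ± 0.20, with an unadjusted p of 0.0141 and an adjusted p of 0.515 in edgeR with Benjamini-Hochberg adjustment. DESeq2 gave an adjusted p of 0.0560, and the adjusted p over 20 alternatives ran from there to 0.999, so the gene passed in none of them. The fold change was negative in all 20, from -0.76 to -0.47.

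Tnnt2, cardiac troponin T and the troponin with the highest mean TPM, did not show this. Its TPM was 5196, 5772 and 6280 in ET replicates 1 to 3, against 5224, 5733 and 6709 in CONT replicates 1 to 3. The groups covered nearly the same range, and the spread within each (SD 542 in ET and 755 in CONT) exceeded the gap between their means of 5749 TPM in ET and 5889 TPM in CONT. Its log2 fold change was -0.19 ± 0.23, with an adjusted p of 0.786 in edgeR's test. This does not show that the level was equal, since its SE leaves room for a change in either direction.

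Tpm1, alpha tropomyosin, was lowest in ET replicate 1. Its TPM was 4351, 6624 and 5870 in ET replicates 1 to 3, against 6232, 6629 and 7079 in CONT replicates 1 to 3. ET replicate 2 lies inside the CONT range of TPM, so the groups overlapped on that scale. In CPM they did not, with 3939, 6422 and 6429 in ET and 7386, 8110 and 7125 in CONT. For Tpm1 the log2 fold change was -0.43 ± 0.25 with an adjusted p of 0.620 in edgeR's test, and -0.22 without ET replicate 1.

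**Figure D1:**
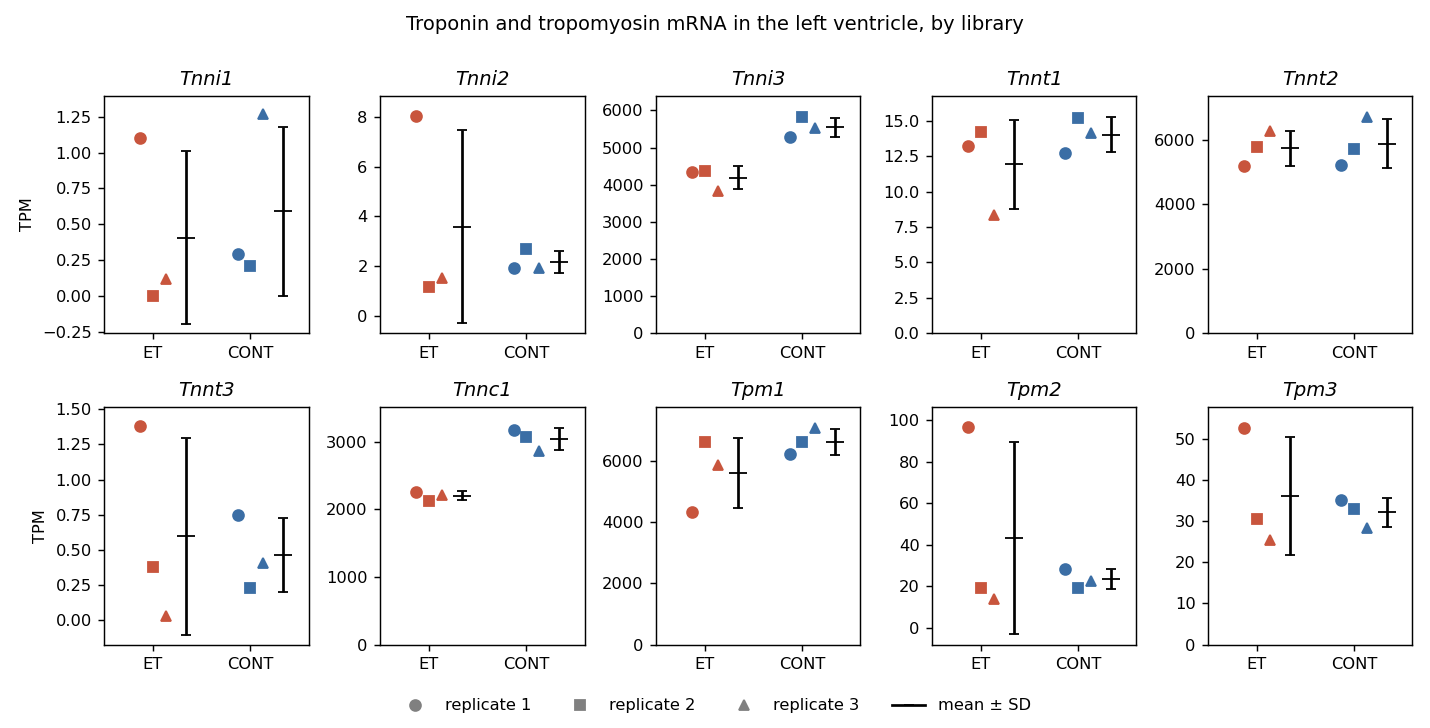
TPM of the 10 members in each library, with ET left of CONT in each panel, 1 point per library (shape for replicate) and the group mean ± SD (n = 3). Tnni3 and Tnnc1 are the panels in which the ET points lie apart from and below the CONT points, and in Tnni2, Tnnt3, Tpm2 and Tpm3 the highest point is ET replicate 1.

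Set against Tnnt2 within each library, which removes the scale of the library, the other cardiac genes were lower on average in ET but with overlap. The ratio of Tnni3 to Tnnt2 TPM was 0.836, 0.759 and 0.610 in ET replicates 1 to 3, against 1.01, 1.01 and 0.824 in CONT replicates 1 to 3. CONT replicate 3 lay between ET replicates 1 and 2. The ratio of Tnnc1 to Tnnt2 was 0.434, 0.368 and 0.352 in ET and 0.608, 0.536 and 0.427 in CONT, and CONT replicate 3 again lay just below ET replicate 1. For Tpm1 to Tnnt2 the values were 0.837, 1.15 and 0.935 in ET and 1.19, 1.16 and 1.05 in CONT. Tnni3 and Tnnc1 kept a similar proportion to each other, at 1.91 ± 0.166 in ET and 1.83 ± 0.141 in CONT (SD, n = 3 each). These ratios were chosen after the values were seen and were not tested.

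**Figure D2:**
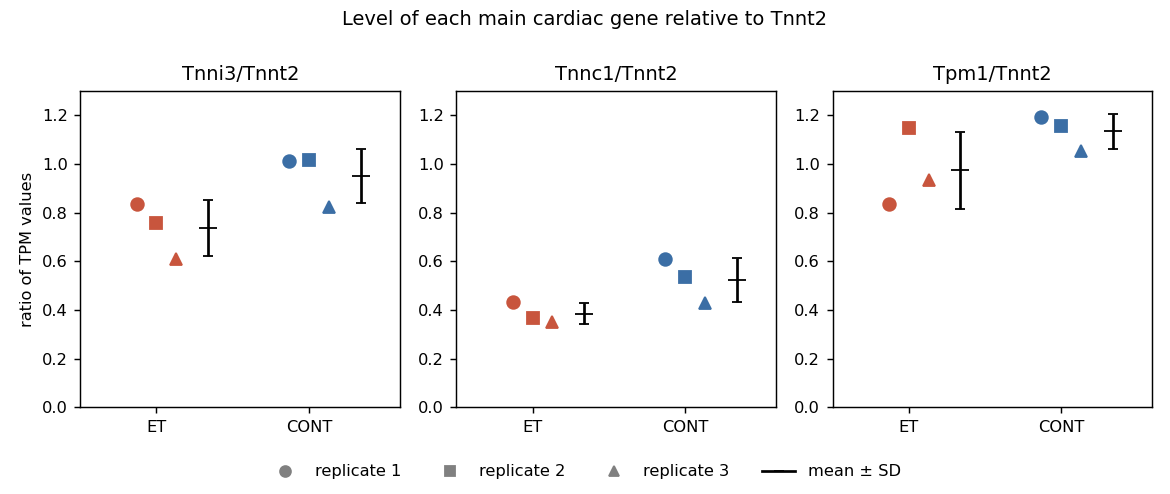
Ratio of the TPM of Tnni3, Tnnc1 and Tpm1 to that of Tnnt2 in each library, with ET left of CONT and the mean ± SD (n = 3). In each panel the ET mean is the lower (0.735, 0.385 and 0.973, against 0.951, 0.524 and 1.14 in CONT), and at least 1 ET library reaches the CONT range.

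The lower cardiac genes went along with other differences between these libraries. Of the 10 cardiomyocyte markers 4 (Myh6, Myl2, Myl3 and Actn2) had lower TPM in each ET library than in each CONT library, and 6 overlapped. Of all tested genes 3.27% were lower and 12.3% higher in ET without overlap on TPM. The calcium pump gene Atp2a2 had a higher mean in ET (1609 ± 517 TPM in ET and 1218 ± 476 TPM in CONT; SD, n = 3 each), as did the calcium channel gene Ryr2 (76.4 ± 26.8 TPM in ET and 46.3 ± 28.3 TPM in CONT). Pln (1841 TPM in ET and 1839 TPM in CONT) and Ttn (40.2 TPM in ET and 38.7 TPM in CONT) had close means. Mybpc3 had a lower mean in ET (359 TPM in ET and 478 TPM in CONT). So did Actc1 (3109 TPM in ET and 4530 TPM in CONT). The part of these markers in the values of Tnni3 and Tnnc1 was not tested. Leaving out ET replicate 1, the library of the highest atrial marker sum, the log2 fold change was -0.55 for Tnni3 and -0.58 for Tnnc1. These were close to the values with it. Without CONT replicate 3, the other library with a high atrial marker sum, the values were -0.67 and -0.75. The part of atrial RNA in the Tnni3 and Tnnc1 values was not tested. Scaling also matters for their size. The median log2 fold change of all tested genes was 0.014 with TMM factors, 0.12 with library totals only and 0.15 on log2(TPM + 1). Relative to that median, Tnni3 stood at -0.61, -0.61 and -0.55 on these scales and Tnnc1 at -0.68, -0.68 and -0.61.

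Among the rarer forms, Tpm2, Tpm3, Tnni2 and Tnnt3 were highest in ET replicate 1. Tpm2 had 96.7, 19.04 and 13.99 TPM in ET replicates 1 to 3, against 28.5, 19.03 and 22.8 TPM in CONT replicates 1 to 3. A single library lies far above the other 5, which span 13.99 to 28.5. With all 6 libraries the log2 fold change was 0.70 ± 0.66 (adjusted p 0.741 in edgeR's test), and it was -0.60 without ET replicate 1 (adjusted p 0.271, within a range of 0.178 to 0.999 over 20 alternatives). The summed TPM of 9 smooth muscle markers, each present in all libraries, was 508, 201 and 103 in ET replicates 1 to 3 and 200, 160 and 155 in CONT replicates 1 to 3. The summed atrial markers peaked in the same library. The part of either in the Tpm2 value was not tested.

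Tpm3 was highest in the same library by a smaller margin. It had 52.6, 30.5 and 25.5 TPM in ET replicates 1 to 3, against 35.2, 33.0 and 28.3 TPM in CONT replicates 1 to 3. Its log2 fold change of -0.095 ± 0.23 turned positive with the scaling, at 0.052 with library totals and 0.10 on log2(TPM + 1), while relative to the median of all genes it stayed negative at -0.11, -0.069 and -0.044. Reads of Tpm3 may be shared with the near-copy Tpm3-rs7, which had 47.7 to 123.5 expected counts in ET and 61.9 to 109 in CONT, or 3.06 to 4.21% of those of Tpm3, so its level is uncertain. Another copy, Tpm3-rs2, had 0 counts in each library.

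The skeletal troponin genes other than Tnnt1 had few counts. Tnni2, fast troponin I, had 8.07, 1.14 and 1.53 TPM in ET replicates 1 to 3 (153, 24 and 33 expected counts), against 1.92, 2.68 and 1.91 TPM in CONT replicates 1 to 3 (47, 54 and 35 counts). ET replicate 1 is again the high library, and the log2 fold change of 0.44 ± 0.67 became -0.68 without it. Tnnt3, fast troponin T, had 25, 6 and 1 counts in ET and 13, 4 and 9 in CONT, too few for a test, with the same library highest. The 18 skeletal muscle markers were mixed in that library, where 8 of them were highest, ties included. The fast myosin heavy chains were at or near 0 in every library. In ET replicate 1 Myh4 had 0 TPM, Myh1 0.02 and Myh2 0.01. Others of the list were highest there, as Atp2a1 with 4.73 TPM against 0.16 to 0.73 TPM in the other 5 libraries and Actn3 with 0.81 TPM against 0.02 to 0.36 TPM. Mybpc2 had 7.49 TPM there and 2.72 to 6.89 TPM in the others. Casq1 had 5.45 TPM there, below the 8.4 TPM of CONT replicates 1 and 3. Cacna1s was lowest there, with 1.75 TPM against 3.41 to 4.48 TPM in the others. Most of the sum of the 18 skeletal muscle markers there (207 TPM, against 30.8 and 41.5 in the other ET libraries and 48.6 to 80.4 in CONT) came from Myl1 (185 TPM), an alkali light chain gene, and 11 of the 18 had a count in each library. The part of skeletal muscle RNA in the Tnni2 and Tnnt3 values was not tested.

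Tnni1, the slow skeletal and fetal troponin I, was highest in the libraries with the highest atrial marker sums. It had 31, 0 and 4 expected counts in ET replicates 1 to 3 and 12, 5 and 35 in CONT replicates 1 to 3, which is 1.1, 0 and 0.12 TPM in ET against 0.29, 0.21 and 1.27 TPM in CONT. The highest values stand in CONT replicate 3 and ET replicate 1, and no count in ET replicate 2 allows up to 3 counts, or 0.0893 CPM. With a log2 fold change of -0.67 ± 1.17, its SE exceeded its size, and the value was -2.98 with ET replicate 1 left out and 0.32 with CONT replicate 3 left out. Atrial marker sums were 14760 TPM in ET replicate 1, 2207 TPM in CONT replicate 3 and 110 to 507 TPM in the other 4. Among the atrial markers Bmp10 had 0.01 TPM in ET replicate 1 and 24.9 TPM in CONT replicate 3. The rest of that list was highest in ET replicate 1. The part of atrial RNA in the Tnni1 values was not tested.

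Tnnt1, slow skeletal troponin T, was the skeletal form with the most counts. It had 13.2, 14.2 and 8.34 TPM in ET replicates 1 to 3, against 12.8, 15.2 and 14.1 TPM in CONT replicates 1 to 3, and ET replicate 3 was the low library. In CPM the groups did not overlap (8.13, 9.94 and 7.49 in ET, 10.3, 13.7 and 10.4 in CONT), and in TPM they did. Tnnt1 had a log2 fold change of -0.43 ± 0.18, with an unadjusted p of 0.0508 and an adjusted p of 0.572 in edgeR's test. Tnnt1 starts 1.92 kb downstream of Tnni3 on the same strand, with no gene between them. Its expected counts were 0.286, 0.327 and 0.247% of those of Tnni3 in ET and 0.229, 0.270 and 0.263% in CONT. The groups overlapped in that proportion, which was chosen after the values were seen. A link between these genes was not tested.

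**Figure D3:**
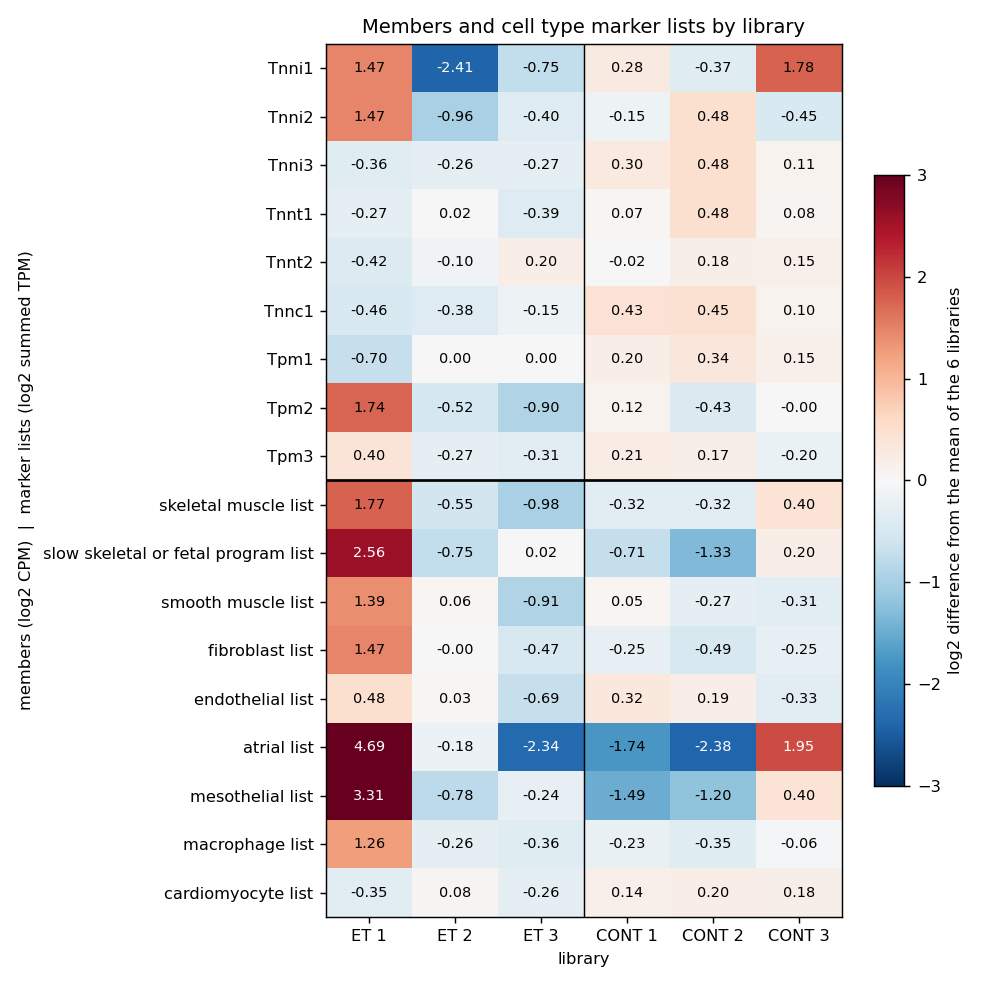
Log2 difference of each library from the mean of the 6, for the 9 tested members (CPM, above the line) and for the summed TPM of 9 marker lists (below it), with ET left of CONT and colours that saturate at 3. Tnni1, Tnni2, Tpm2 and Tpm3 are positive in ET replicate 1, where the atrial (4.69) and mesothelial (3.31) lists are highest, and Tnni3, Tnnc1, Tnnt2, Tnnt1 and Tpm1 are negative there.

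Across the 9 tested members the comparison of ET with CONT gave no call. Of all 15727 genes, 0 passed an adjusted p of 0.05 in edgeR, which is 0.0% called, and 1360 had an unadjusted p under 0.05, which is 8.65% (4.46% lower and 4.19% higher in ET). Among the members 0 passed and 2, Tnni3 and Tnnc1, had an unadjusted p under 0.05, both lower in ET. DESeq2 called 1 member, Tnni3, where it called 170 genes or 1.04% (0.442% lower in ET), and limma-voom called 0 of 15727 genes with 1277 at an unadjusted p under 0.05. The 4 members Tnni3, Tnnc1, Tnnt1 and Tpm1 had CPM values lower in ET without overlap, against 8.36% of all tested genes in that direction, and 0 members were higher without overlap, against 6.89%. On TPM the groups stayed apart in Tnni3 and Tnnc1, both lower in ET, and overlapped in the other 8, where 3.27% of the tested genes were lower and 12.3% higher in ET without overlap. Without CONT replicate 3 and ET replicate 1 together edgeR called 828 genes or 5.27%, and 0 members, with adjusted p-values of 0.0647 for Tnni3 and 0.0565 for Tnnc1. In that comparison of 2 with 2 libraries the groups coincide with the library sets described next. By effective gene length, described below, the libraries fall into a pair of sets that cross the groups. ET replicate 1 and CONT replicates 1 and 2 are in set 1 and the others in set 2. Within set 1 the log2 difference (ET minus CONT) was -0.75 for Tnni3, -0.90 for Tnnc1, -0.97 for Tpm1 and -0.50 for Tnnt2. Within set 2 it was -0.38, -0.37, -0.15 and -0.10 in the same order, and each of these values rests on a single ET or a single CONT library.

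**Figure D4:**
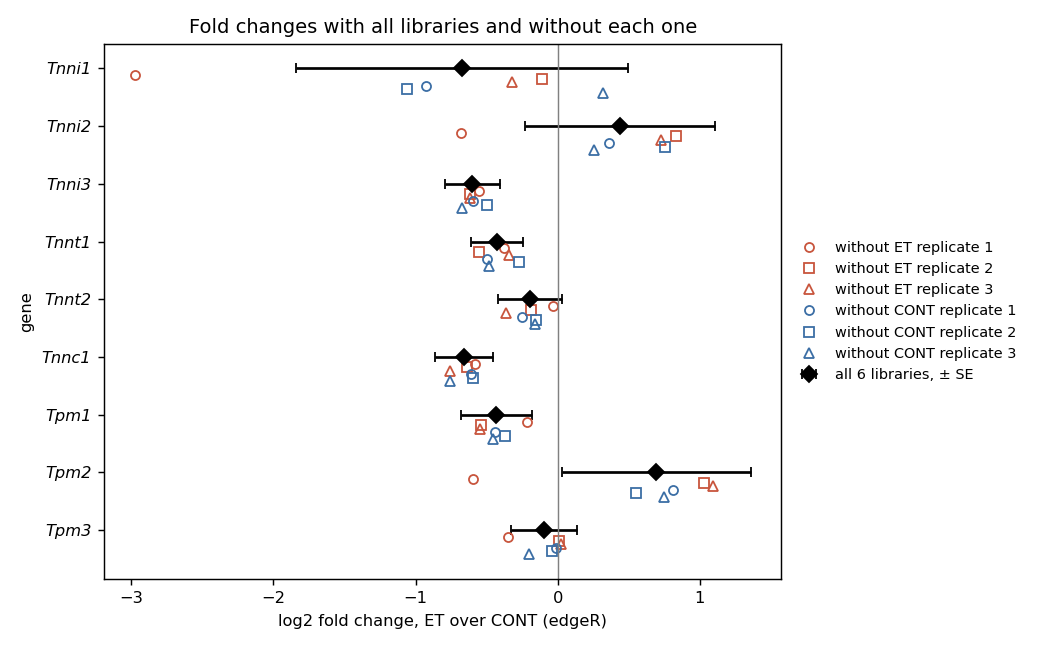
Log2 fold change of ET over CONT from edgeR for the 9 tested members, with all 6 libraries (black, ± SE) and without each library in turn (open symbols). Tnni3 (-0.67 to -0.50) and Tnnc1 (-0.76 to -0.58) keep their side of 0 without any one library, while Tpm2 (-0.60 to 1.09), Tnni2 (-0.68 to 0.83) and Tnni1 (-2.98 to 0.32) do not.

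The makeup of each family, as the share of a gene in the TPM of its family, shows the level of the skeletal forms beside the cardiac ones. Tnni1 made up 0.00946 ± 0.0138% of troponin I mRNA in ET and 0.0107 ± 0.0107% in CONT (SD, n = 3 each). Tnni2 made up 0.0838 ± 0.0882% in ET and 0.0389 ± 0.00621% in CONT. Tnnt1 was 0.211 ± 0.0677% of troponin T in ET and 0.239 ± 0.0274% in CONT, and Tnnt3 was 0.0112 ± 0.0136% in ET and 0.00814 ± 0.00545% in CONT. Of the summed TPM of Tpm1, Tpm2 and Tpm3, Tpm2 was 0.890 ± 1.09% in ET and 0.352 ± 0.0883% in CONT. Tpm3 was 0.685 ± 0.419% in ET and 0.483 ± 0.0817% in CONT. In each case the larger SD exceeded the difference between the means. The 6 shares had exact two-sided permutation p-values of 0.70 to 0.90 and Benjamini-Hochberg adjusted values of 0.90, in a design of 3 against 3 that cannot go below 0.10. Within ET, Tpm2 ran from 0.237 to 2.15% of the sum of Tpm1, Tpm2 and Tpm3, with ET replicate 1 at the top. Tpm4, a tropomyosin gene outside the 10 members, is not in that sum. It averaged 45.15 ± 20.98 TPM in ET and 46.67 ± 10.36 TPM in CONT.

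The effective length of a gene is the length by which its FPKM was scaled, a mean over its transcripts weighted by their abundance. It is not the annotated length. It changes with the transcript mix, and other sources of its variation between libraries were not tested. It could be taken for 7 members with at least 50 counts in each library. Tnnc1, with 3 annotated transcripts, was the steadiest at 625, 619 and 624 bases in ET replicates 1 to 3 and 623, 626 and 623 in CONT replicates 1 to 3. Tnnt2, which has 15 annotated transcripts and is known for alternative splicing during heart development, was nearly as steady at 991 to 1000 bases in ET and 984 to 995 in CONT. Tpm2 varied most, with 1305, 1227 and 1143 bases in ET and 1091, 1069 and 1425 in CONT. The longest mix of Tpm2 was in CONT replicate 3 and the next in ET replicate 1. Its 6 transcripts in the annotation reach from 337 to 2175 bases. Tnni3 (743 to 793 in ET, 743 to 779 in CONT) and Tpm1 (1039 to 1097 in ET, 1049 to 1089 in CONT) were longer in each library of set 1 than in each of set 2. Of 8090 genes with at least 200 counts in each library, 24.7% did not overlap between the sets, and since the sets were read from such lengths this is a description. No member's lengths were apart between ET and CONT, against 12.6% of those genes. In smaller comparisons some were apart, 3 of 7 without CONT replicate 3 and ET replicate 1 (51.8% of those genes), 4 within set 1 (70.6%) and 4 within set 2 (66.7%), so the members' shares were not above those of all genes. Exact permutation p-values of the 7 members were 0.40 to 0.90, and 0.90 after Benjamini-Hochberg adjustment.

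**Figure D5:**
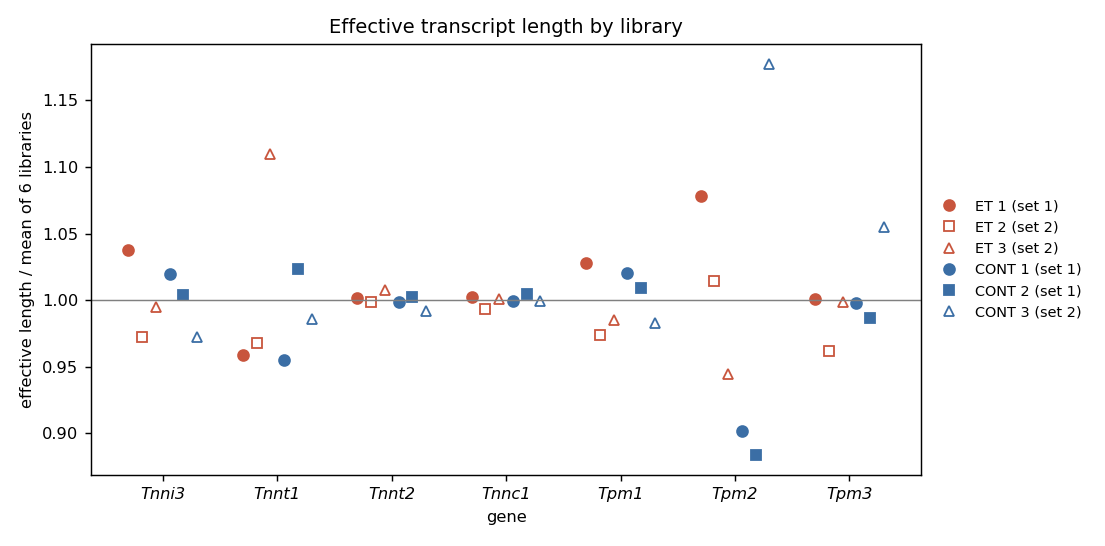
Effective length of 7 members in each library, divided by the mean of the 6 libraries, with ET in red and CONT in blue, ET left of CONT for each gene, and filled symbols for set 1. Tnnt2 and Tnnc1 lie close to 1 in each library, and Tpm2 spreads most, from 1069 to 1425 bases.

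On the GRCm38 annotation (GENCODE vM21) all 10 are protein-coding genes and each value covers all exons. The troponin genes form pairs of an I and a T gene on the same strand. Tnni3 lies on chromosome 7 at 4518305 to 4524229 (minus) and Tnnt1 at 4504570 to 4516382. Tnni1 lies on chromosome 1 at 135779434 to 135810989 (plus) and Tnnt2 at 135836354 to 135852260, 25.4 kb apart with 1 gene, Lad1, between them. Tnni2 lies on chromosome 7 at 142441808 to 142444410 (plus) and Tnnt3 at 142498836 to 142516009, 54.4 kb apart with Lsp1 between them. Of these neighbours, Tnni3 and Tnnt1 had lower CPM in each ET library, Tnni2 and Tnnt3 were both highest in ET replicate 1, and Tnni1 had few counts where Tnnt2 had many. Tnnc1 lies on chromosome 14 at 31208312 to 31211729 (plus), within Nisch on the opposite strand but with 0% of its exon bases shared with any gene. Tpm1 lies on chromosome 9 at 67022590 to 67049406 (minus), Tpm2 on chromosome 4 at 43514711 to 43523765 (minus) and Tpm3 on chromosome 3 at 90072649 to 90100902 (plus). Exon bases are shared by Tnni3 alone among the members, 4.17% of them with Dnaaf3 on the same strand. Dnaaf3 had 132 to 224 expected counts in ET and 223 to 325 in CONT, against 93170 or more for Tnni3.

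Other genes of the thin filament lay on both sides of 0. Of 21 further thin filament genes 20 were tested and 0 passed, 10 had a positive and 10 a negative fold change, and their median log2 fold change was 0.001, against 0.014 over all tested genes. Lmod3, a leiomodin that starts actin filaments at their pointed end, had the lowest p of them. It had 12.8, 16.7 and 15.6 TPM in ET replicates 1 to 3, against 26.5, 22.9 and 27.7 TPM in CONT replicates 1 to 3. The groups were far apart in TPM and CPM, with a log2 fold change of -0.94 ± 0.19 and an adjusted p of 0.427 in edgeR's test, and it was the 1 gene of these lists that DESeq2 called. Lmod1, the smooth muscle leiomodin, had 10.2, 1.96 and 1.06 TPM in ET and 1.51, 0.85 and 0.86 TPM in CONT, and so was highest in ET replicate 1, as was Tpm2. Actc1, cardiac actin and the backbone of the filament, had 2580, 4920 and 1827 TPM in ET and 4204, 4368 and 5018 TPM in CONT. It was chosen after its values were seen.

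Among 17 kinases, phosphatases and other genes that act on troponin or tropomyosin, 0 passed, 12 had positive and 5 negative fold changes, and the median was 0.12. Of 18 splicing factors of muscle transcripts 17 were tested and 0 passed, with 7 positive, 10 negative and a median of -0.004. Mbnl2, a muscleblind protein whose family acts on the splicing of Tnnt2, had 44.2 ± 3.56 TPM in ET and 29.9 ± 7.33 TPM in CONT (SD, n = 3 each; log2 fold change 0.39 ± 0.19). Rbfox1, another splicing factor, had 6.85 ± 0.957 TPM in ET and 4.78 ± 3.21 TPM in CONT. Of 18 tested transcription factors of sarcomere genes 0 passed, with 14 positive, 4 negative and a median of 0.066. Mef2c had 7.69 ± 0.937 TPM in ET and 7.67 ± 0.915 TPM in CONT, while its log2 fold change of CPM was -0.25 ± 0.14. Tbx5 had 21.8, 14.8 and 10.5 TPM in ET and 3.45, 5.14 and 15.7 TPM in CONT. Adjusted p-values of these named genes were 0.572 or more in edgeR's test. No list had a larger share of genes without overlap between groups than the 15.2% of all genes, the highest being 10.0% in the thin filament list.

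For each tested member the genes with the nearest course over the 6 libraries were sought. Likeness was the root mean square difference of log2 CPM, each gene centred on its own mean, among 7444 genes with a mean of at least 10 CPM. Tpm1 was nearest to Uqcrc1 (0.036) and Cyc1 (0.039), both of respiratory complex III. Tnnt2 was nearest to Rtn2 and Apoo (0.043 each; Apoo is a protein of the mitochondrial inner membrane), and Tnnc1 to Fmc1 (0.047) and Neurl2 (0.081). Tnni3 was nearest to Rangrf (0.038) and Adamtsl5 (0.067), Tnnt1 to Cited4 (0.066) and Parp9 (0.084), and Tpm3 to Necap2 (0.039) and Ppp1r18 (0.047). Tpm2 was nearest to Myl9 (0.12), the regulatory light chain of smooth muscle myosin, and Csrp2 (0.13), a LIM protein of smooth muscle. Tnni2 was nearest to S100a6 (0.24) and Emp3 (0.27). For Tnni1 the nearest, Slc17a7, was 0.70 away, against a deviation of Tnni1 from its own mean of 1.41, so it had no close match. The nearest gene was a member in no case, and with 6 libraries that share groups and depth such likeness is a description only.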

How the data were processed

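Bulk RNA-seq libraries (3 ET, 3 CONT) were grouped by their source label. Reads were aligned and quantified with STAR 2.7.0f and RSEM 1.2.31 on mm10, per the submitters' processing notes, and the annotation release was not given in the sources used here, nor was the strand setting. The authors deposited expected counts, not normalized, in 1 table. TPM and FPKM, scaled by the authors per effective length, were deposited in 1 file per library, per the file headers. Of the nonzero expected counts 66.4% were whole within 0.005, and they were rounded before testing.

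Genes were kept by filterByExpr (minimum count 10, minimum total 15), leaving 15727. The main test between ET and CONT was edgeR's quasi-likelihood F-test with robust fitting (TMM, two-sided, Benjamini-Hochberg, threshold 0.05), with SE as the fold change divided by the root of F. Effective length is the ratio of CPM, from expected counts, to FPKM. Shares and lengths used exact permutation over 20 assignments. Libraries of a group differed far beyond sampling noise (chi-square per gene 18.8 to 190). Versions were edgeR 4.0.16, DESeq2 1.42.0 and limma 3.58.1 in R 4.3.3, and pandas 2.3.3, scipy 1.17.1 and matplotlib 3.10.9 in Python 3.11.15, and the tests were tried on simulated counts.

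Alternatives were other factors, filters, limma-voom, DESeq2, limma-trend with a pseudocount of 1 or 0.1 on log2 TPM, removal of genes or libraries, and a term for library sets. Named are all members, 2 genes of lowest p per list (mean TPM of at least 1) and the 2 nearest genes per tested member. The genes of lowest p in the list of modifiers are not reported here. Members and lists were chosen with earlier results of these data known. Counting limits cover counting error only.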

Additional observations from a re-analysis of the deposited data

How the results depend on the processing

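No paired analysis was possible because the labels give no replicate numbers, and those used here are the order of deposit. The count of called genes, 0 in edgeR with all libraries, was 170 in DESeq2, 2 by limma-trend on log2(TPM + 0.1) and 828 without CONT replicate 3 and ET replicate 1 together, where group and library set coincide. It was 0 in the other 17 alternatives. Members called numbered 1 in DESeq2 and 0 in the others. Over the 4 lists of other thin filament, modifier, splicing and transcription factor genes together, 1 was called in DESeq2 and 11 without those 2 libraries. The 11 were 5 of 20 thin filament genes (3 higher and 2 lower in ET) and others that were all higher. These others were 1 of 17 modifiers, 1 of 17 splicing factors and 4 of 18 transcription factors. Of all genes 1.04% were called in DESeq2 and 5.27% without those 2 libraries. Members whose effective lengths did not overlap between groups numbered 0, from 0 to 1 without single libraries, 3 without CONT replicate 3 and ET replicate 1, and 4 within set 1 and 4 within set 2, where 1 library stands on a side. Over all genes the shares in these last 3 comparisons were 51.8, 70.6 and 66.7%.

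Tnni3, Tnnc1, Tnnt1, Tnnt2 and Tpm1 kept a negative fold change in all alternatives. Without single libraries Tnni1 ran from -2.98 to 0.32, Tnni2 from -0.68 to 0.83, Tpm2 from -0.60 to 1.09 and Tpm3 from -0.35 to 0.027. Without CONT replicate 3 and ET replicate 1 Tnni2 had -0.87, Tpm2 -0.54 and Tpm3 -0.46. In set 1 Tnni1 had 1.52 and Tpm3 0.21, and in set 2 Tnni2 had -0.23 and Tpm2 -0.71. Tpm3 had 0.059 with the set term, 0.052 with library totals and 0.10 in the 3 limma-trend fits. Without single libraries the difference in share (ET minus CONT, percentage points) ran from -0.00911 to 0.00492 for Tnni1, -0.00595 to 0.0737 for Tnni2, -0.0506 to 0.0102 for Tnnt1, -0.00462 to 0.00838 for Tnnt3, -0.0911 to 0.864 for Tpm2 and -0.0398 to 0.329 for Tpm3. Without CONT replicate 3 and ET replicate 1 it was -0.00815 for Tnni2, -0.00564 for Tnnt3, -0.0652 for Tnnt1, -0.107 for Tpm2 and -0.0831 for Tpm3, and as a log2 ratio to Tnnt2 the difference of Tnnt3 was -0.69. No such ratio exists for Tnni1, with 0 TPM in ET replicate 2. The cause was not tested. Depth limits Tnni1 and Tnnt3, with at most 35 counts in a library, and Tnni2, with at most 54 outside ET replicate 1.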
